A study of Mus musculus with 8 samples.

Results

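The killer cell lectin-like receptor (Klr) genes were examined by whole-genome bisulfite sequencing of mouse B and T lymphocytes. They were taken as every gene of the GENCODE M21 annotation on chromosome 6 whose symbol starts with Klra, Klrb, Klrc, Klrd, Klre, Klrg, Klrh, Klri or Klrk, whatever its biotype. The rule found 30 of the 53843 annotated genes on the autosomes and X. There were 14 Klra, 6 Klrb, 3 Klrc, 2 Klrg and 2 Klri genes, and Klrd1, Klre1 and Klrk1 stood alone in their subfamilies, while no symbol started with Klrh. Of the 30 genes, 4 are pseudogenes (Klrb1-ps1, Klra11-ps, Klra14-ps and Klra13-ps). Each gene region was the gene body with 2 kb to either side. Together the regions held 3146 CpGs, of which 2692 had 5 or more reads in all 4 files and were used.

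The cells came from spleens of C57BL/6J mice, a standard inbred strain, at 6 to 8 weeks of age. B cells were resting CD43- B lymphocytes. T cells were naive CD4+ CD62L+ lymphocytes sorted as CD44 low and CD25 negative, after a depletion step that also removed cells carrying CD49b (DX5), a natural killer cell antigen. Each biological replicate pooled cells of several animals. The 8 samples formed 4 groups of 2, by sex and cell type, and both samples of a group shared 1 file. Whether that file merges both samples is not stated, so no group has replicates here, and a B against T difference was seen once in each sex. In all that follows, 4 values in a row stand for B then T cells of females, followed by B then T cells of males, and a level is the share of reads at CpGs that resisted conversion. Bisulfite alone reads 5-methylcytosine and 5-hydroxymethylcytosine alike. The preparation protocol in the labels also has an oxidation step for part of each sample, after which 5-hydroxymethylcytosine is no longer read. The labels name the files as bisulfite, but whether they hold any oxidized reads is not stated, so a level may measure both marks or 5-methylcytosine alone.

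Natural killer (NK) cells read the state of other cells through these receptors, which are type II membrane proteins with a lectin-like outer domain. Most of the genes lie in the NK gene complex, where repeated duplication has left near-identical copies. Klra genes encode the Ly49 receptors for MHC class I, either inhibitory through a tyrosine motif in their tail or activating through the adaptor DAP12. Klrb1 genes encode the NKR-P1 receptors, whose ligands are Clec2 proteins. Klrd1 encodes CD94, which pairs with the NKG2 proteins of the Klrc genes to bind Qa-1. Klrk1 encodes NKG2D, the receptor for stress-induced ligands such as Rae1, H60 and MULT1. Naive B cells and naive CD4+ T cells are not known for using them, and DNA methylation at promoters and enhancers is generally high where such genes are silent.

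In the annotation (GRCm38), 28 of the 30 genes lie in 1 cluster of 2.64 Mb, chr6:128609227-131247362, which also holds 19 other protein-coding genes. Klrg2 (chr6:38625693-38637242) and Klrg1 (chr6:122270596-122282882) lie apart from it. The results turn on short stretches within this cluster. They are shown here on the strand of their gene, from 5′ to 3′, with each CpG, the unit that is measured, in capitals. The first pair are the RefSeq promoters (GRCm38.p6, 250 bases before to 50 after the start) of Klra1, chr6:130386825-130387124, and of Klrk1, chr6:129623815-129624114, both on the minus strand. The others were read from the GRCm38 genome: an inner stretch of Klrb1b (chr6:128820153-128820409, minus strand), the start of Klra3 (chr6:130337463-130337643, minus strand), an inner stretch of Klra1 (chr6:130382390-130382633, minus strand) and a CpG-dense stretch of Klrb1f (chr6:129049188-129049367, plus strand).
Klra1: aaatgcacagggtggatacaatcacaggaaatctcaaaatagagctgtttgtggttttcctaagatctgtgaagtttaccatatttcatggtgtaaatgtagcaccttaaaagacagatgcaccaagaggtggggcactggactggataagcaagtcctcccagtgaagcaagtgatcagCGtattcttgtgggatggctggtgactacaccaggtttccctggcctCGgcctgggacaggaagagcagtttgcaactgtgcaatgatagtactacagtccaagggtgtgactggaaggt
Klrk1: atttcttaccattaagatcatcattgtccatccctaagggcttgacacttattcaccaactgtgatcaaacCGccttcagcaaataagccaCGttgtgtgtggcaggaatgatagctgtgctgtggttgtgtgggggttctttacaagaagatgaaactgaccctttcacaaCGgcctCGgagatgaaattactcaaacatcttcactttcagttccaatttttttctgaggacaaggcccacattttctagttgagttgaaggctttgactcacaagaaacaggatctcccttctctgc
Klrb1b inner stretch: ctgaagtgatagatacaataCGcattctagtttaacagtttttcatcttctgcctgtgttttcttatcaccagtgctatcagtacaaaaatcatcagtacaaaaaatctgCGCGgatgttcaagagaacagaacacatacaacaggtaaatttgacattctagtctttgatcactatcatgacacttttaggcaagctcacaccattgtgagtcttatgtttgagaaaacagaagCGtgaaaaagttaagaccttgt
Klra3 start: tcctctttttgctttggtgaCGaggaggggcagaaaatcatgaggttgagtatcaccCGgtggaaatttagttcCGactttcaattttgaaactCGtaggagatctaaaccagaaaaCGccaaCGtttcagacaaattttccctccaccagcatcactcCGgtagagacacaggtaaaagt
Klra1 inner stretch: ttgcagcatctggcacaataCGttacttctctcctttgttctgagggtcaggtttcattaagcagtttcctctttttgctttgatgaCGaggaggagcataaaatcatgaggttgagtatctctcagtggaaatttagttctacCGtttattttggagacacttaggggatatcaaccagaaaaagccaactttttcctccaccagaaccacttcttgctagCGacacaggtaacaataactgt
Klrb1f stretch: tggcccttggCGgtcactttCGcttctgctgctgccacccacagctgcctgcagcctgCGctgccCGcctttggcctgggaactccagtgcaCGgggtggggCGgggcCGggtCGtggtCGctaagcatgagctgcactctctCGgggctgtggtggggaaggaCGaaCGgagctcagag

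CpGs were sparse at these starts. Of the 30 genes, 23 had a promoter in the RefSeq table, with a median of 2 CpGs in 300 bases against 7 over all 32851 promoters there, and 82.6% of them held 3 CpGs or fewer against 31.4% of all. Klra4, an activating Ly49 gene, had 0 and Klrg2 had 12, the most of the 23. The gene regions had a median of 4.51 CpGs per kb, against 10.1 over all gene regions tested. Few CpGs mean few reads for each value, and a promoter or window rested on 3 CpGs in the thinnest cases. All intervals below are 95% intervals and cover counting error only, and the upper limit given for a count of 0 is 3 reads of the total.

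By gene region and window, nearly all of this family was highly methylated in both cell types. Over gene regions the median level was 91.2%, against 83.7% over 53135 gene regions, and 28 of 30 (93.3%) were at 80% or more against 59.8% of all. The 1 kb windows gave a like picture, with 360 of 399 (90.2%) at 80% or more against 83.0% of all windows, and 4 at 20% or less. Promoters were closer to the background, with a median of 83.5% against 82.4% of all promoters. Of the 30 Klr promoters 20 (66.7%) were at 80% or more, against 53.2% of all. Among gene regions the exceptions were Klrg2 and Klrb1f. Klrg2, a little-studied member outside the cluster, was at 42.5%, 40.4%, 43.3% and 38.4%. It starts in a CpG island, where its promoter was at 6.68%, 7.58%, 7.04% and 6.89% over 134 CpGs. Klrb1f, an NKR-P1 receptor gene, was at 67.9%, 63.5%, 62.1% and 65.8%. Klrb1-ps1 had the highest mean level of the family, 95.5%, and Klrb1a, the best covered gene, was at 92.9%, 90.2%, 92.0% and 90.6%.

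**Figure D1:**
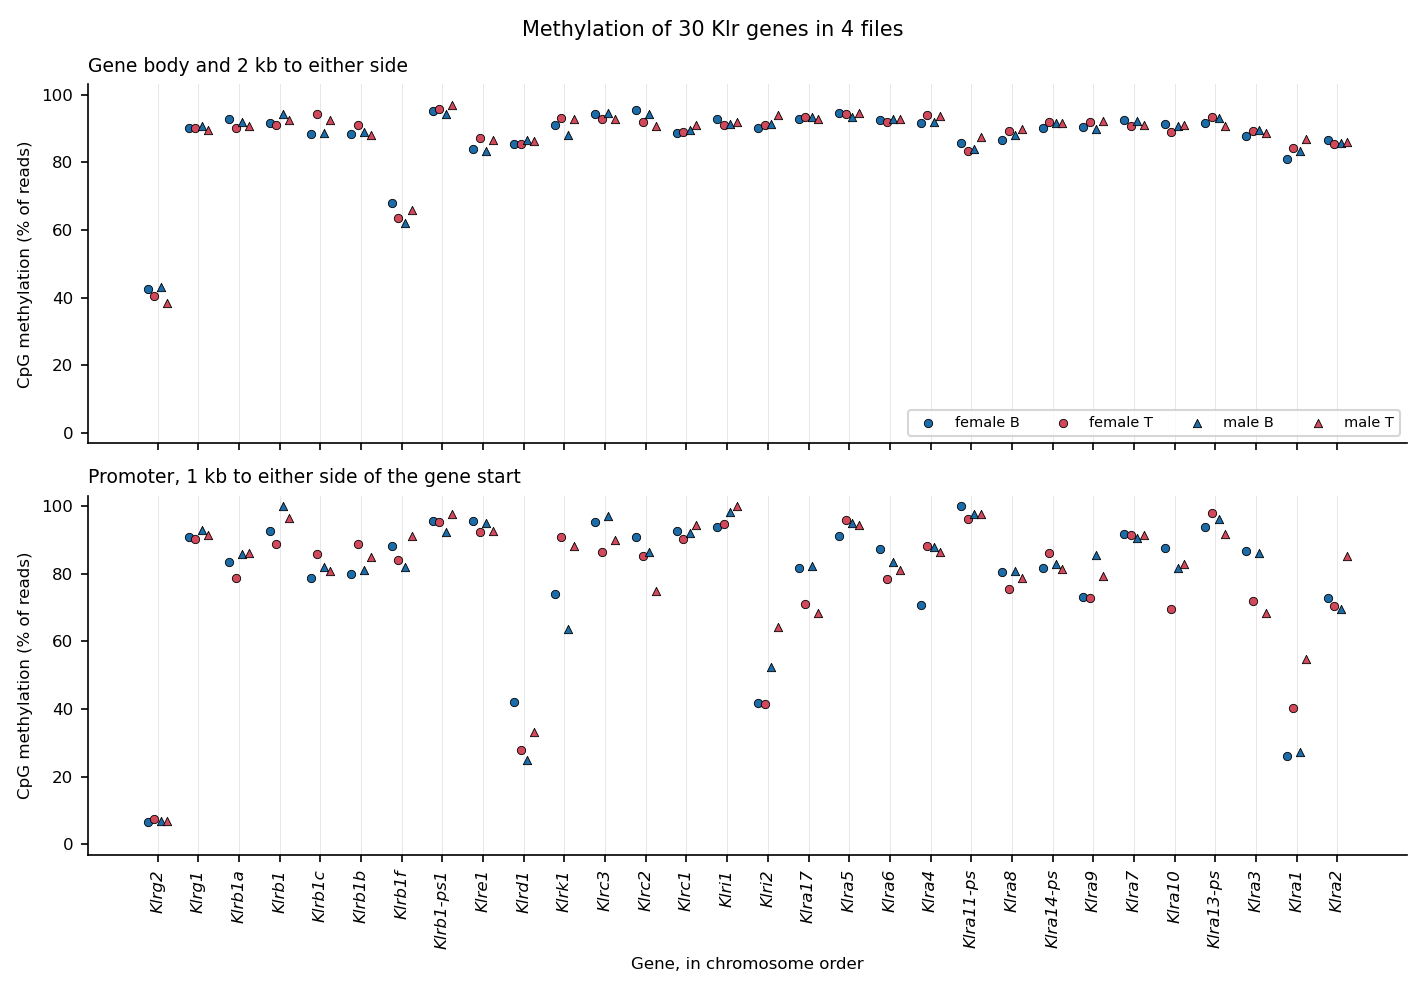
Methylation level (% of reads) of the 30 genes in each of the 4 files, over the gene body with 2 kb flanks (top) and over 1 kb to either side of the gene start (bottom), in chromosome order. Circles are female and triangles male files, blue B and red T cells. Gene regions sit above 80% except in Klrg2 and Klrb1f, while the promoters of Klrg2, Klrd1, Klra1 and Klri2 sit below 65%.

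Read by subfamily, with reads pooled, the 14 Klra genes were at 90.3%, 90.7%, 90.5% and 90.9%, and the 6 Klrb genes at 88.4%, 88.6%, 88.2% and 88.5%. The Klrc genes were at 92.4%, 90.9%, 92.3% and 91.2%. Among Ly49 genes the 9 inhibitory ones spanned mean levels of 83.9% to 94.2% and the 2 activating ones, Klra4 and Klra8, were at 92.8% and 88.4%. The 4 pseudogenes of the family spanned 85.2% to 95.5%. These ranges overlap, and by gene region no role stood apart. By promoter the medians were 78.3% for the inhibitory and 81.1% for the activating genes, and 95.1% for the pseudogenes. Their promoter ranges were 37.1% to 94.1%, 78.9% to 83.4% and 83.1% to 97.8%. By gene region the remaining genes kept to the same band. Klrg1, a receptor for cadherins, was at 90.2%, 90.3%, 90.7% and 89.6%, and Klrb1 at 91.8%, 91.0%, 94.3% and 92.6%. The inhibitory Ly49 genes Klra2, Klra5, Klra6, Klra9 and Klra17 had mean levels of 85.8%, 94.2%, 92.5%, 91.1% and 93.1%. In the order of the 28 genes at 80% or more, from Klra1 to Klrb1-ps1, 24 of 27 neighbours differed by under 1 point, while the 4 files of such a gene spanned a median of 2.59 points, so most places in this order do not stand beyond the spread.

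The pooled level over all Klr CpGs was 84.8%, 83.5%, 84.4% and 82.9%, a mean B minus T difference of 1.41 ± 0.366 points. That value went with Klrg2, whose island took more reads in the T files (3019 and 3394 reads in the promoter against 1901 and 2287 in the B files). Without Klrg2, an alternative added after the data were seen, the difference was -0.283 ± 0.321 points. As a mean over CpGs it was -0.635 points. Over the autosomes the same difference was 0.582 points.

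Coverage differed widely between members, and the Klrc genes had the least. Of all CpGs in the regions 85.6% could be used, against 88.9% on the rest of chromosome 6. The share was 95.7% for Klrb, 81.6% for Klra, 69.1% for Klrk1 and 65.8% for Klrc. Klrb1a was the best covered gene (166 of 169 CpGs) and Klrc3, an NKG2 gene, the worst (27 of 47). For each CpG it was asked whether the sequence reaching 50 bases to either side, with C read as T, occurs once in the genome. In the Klrc regions 53.3% of CpGs were unique in this sense, against 83.1% over the family and 89.6% on chromosome 6. Unique CpGs of the family were usable in 89.6% of cases and the others in 66.0%. Klrk1 departed from this pattern, since 92.6% of its CpGs were unique and only 69.1% usable. It was not alone, as Klra7 had 93.9% unique and 74.2% usable, and Klra4 92.8% and 77.5%. Mean depth per CpG used was 12.8, 15.4, 14.1 and 15.5 reads, and on chromosome 6 it was 14.3, 17.3, 15.8 and 17.0. Levels are uncertain where reads could be split between near-identical copies.

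**Figure D2:**
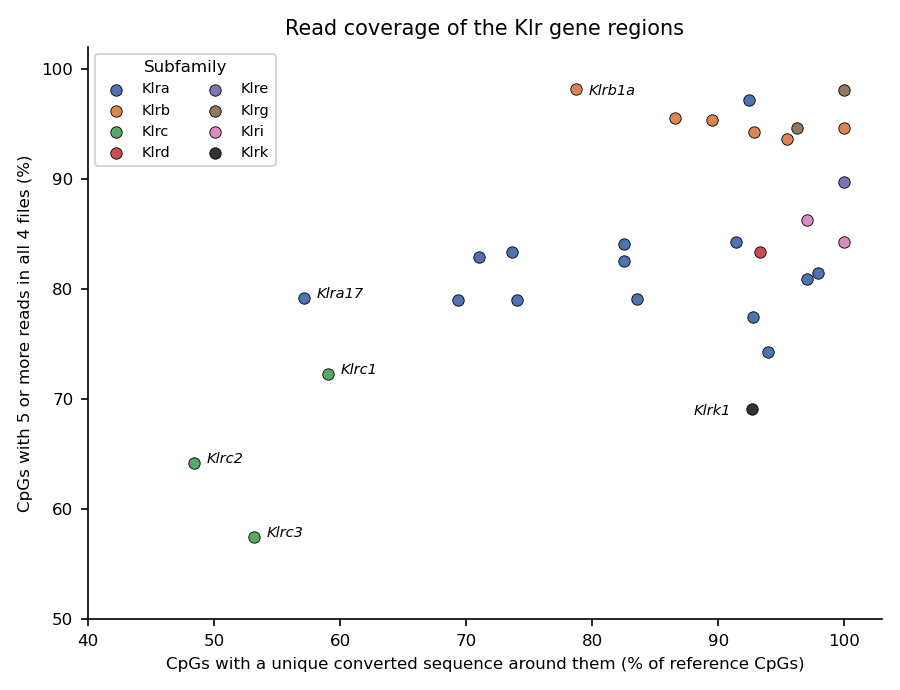
Share of CpGs with 5 or more reads in all 4 files (vertical, %) against the share whose surrounding converted sequence occurs once in the genome (horizontal, %), 1 point per gene, coloured by subfamily. The 3 Klrc genes lie at the lower left, and Klrk1 lies at 92.6% unique and 69.1% used.

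Whether the receptor genes differ between B and T cells was asked for gene regions, promoters (1 kb to either side of the start) and 1 kb windows. A feature was called at an adjusted p under 0.05 from a quasi-binomial model (limma's squeezed dispersion, F test, Benjamini-Hochberg over all features) with a mean difference of 20 points or more. No Klr gene region was called (0 of 30, background 0.717% of 53135), and 6 had an unadjusted p under 0.05 (background 17.8%). No Klr promoter was called (0 of 30, background 1.59% of 51815), and 3 had an unadjusted p under 0.05 (background 15.5%). Limma on log2 ratios and the other dispersion setting called 1 and 2 promoters, named below. Among windows, 9 of 399 (2.26%) were called, 4 higher and 5 lower in B cells. The background was 2.08% of 2018320 windows, 1.16% higher and 0.913% lower, so the share of windows called in these genes was near that of the genome. With the dispersion prior taken from all features, 8 of the 9 calls ended, at adjusted p from 0.0579 to 0.289 in that model, and only the Klrb1c window at 128786001 was still called. The Klr regions touched 606 windows, of which 399 (65.8%) held the 3 CpGs needed.

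**Figure D3:**
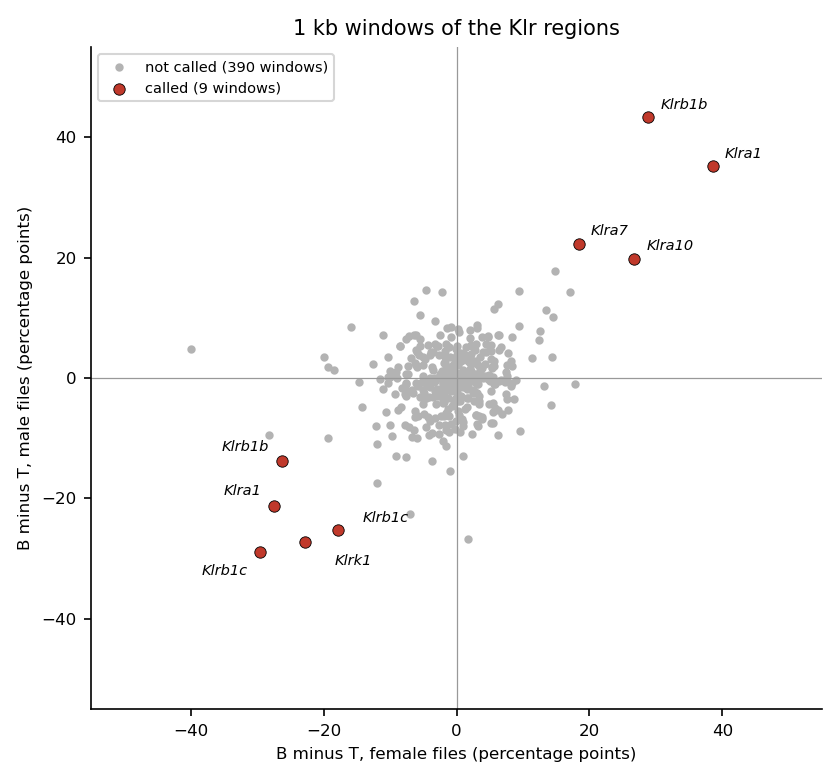
B minus T difference in methylation (percentage points) of the 399 Klr windows in the female (horizontal) and male files (vertical). The 9 called windows, labelled by gene, lie away from the origin in both sexes, up to 38.5 points in females (Klra1) and 43.3 points in males (Klrb1b).

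At the level of gene regions the differences were small. Klrb1c, the gene of the NK1.1 antigen, was the only region with an adjusted p under 0.05 (0.0401, background 5.95%). Its levels were 88.4%, 94.2%, 88.8% and 92.5%, so both B files lay below both T files, with B minus T at -4.77 ± 1.58 points. By limma on log2 ratios its adjusted p was 0.143, and without a dispersion trend 0.153 in the model. Klrc2, an activating NKG2 gene, was at 95.6%, 91.8%, 94.4% and 90.6% (3.76 ± 1.68 points), with an adjusted p of 0.0596 in the same model. Klrc1, the inhibitory NKG2A gene, was at 88.7%, 89.1%, 89.4% and 91.0%, and Klrc3 at 94.2%, 92.8%, 94.6% and 92.9%. Klrk1 was at 91.1%, 93.2%, 88.1% and 92.9% (-3.45 ± 2.28 points, adjusted p 0.162 in the same model). Klre1, a receptor chain that pairs with Klri proteins, was at 83.9%, 87.1%, 83.4% and 86.6% (-3.2 ± 2.12 points, adjusted p 0.233 in the model). Klrd1 was at 85.5%, 85.5%, 86.5% and 86.2%, with a difference of 0.116 ± 2.69 points. Klri1 was at 92.7%, 90.9%, 91.2% and 91.9%. Over the 30 genes the absolute difference had a median of 1.18 points, against 1.36 over all gene regions, and the largest was 4.77. B was the higher in 15 genes and the lower in 15.

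The called window with the smallest adjusted p lay inside Klrb1b, an inhibitory NKR-P1 receptor gene, although a Klra1 window described below had the larger mean difference, 36.9 against 36.1 points. In the window chr6:128820001-128821000, which overlaps an exon, 7 CpGs were at 92.7%, 63.9%, 96.0% and 52.7% from 97 to 129 reads a file. B cells were higher by 28.8 points in females and 43.3 in males (adjusted p 2.44e-14 in the model). The adjusted p was 0.0247 by limma on log2 ratios, and 0.0579 in the model with the prior from all features. With 10 reads per CpG the difference was 19.7 points and the window was not called, since 3 CpGs of the printed stretch had 9 reads in the female T file. The contrast sat in that stretch, which was chosen after its values were seen. Its 4 CpGs, 2 of them in an exon, were at 95.1%, 28.2%, 94.8% and 21.9%. The 3 other CpGs of the window, 5368 to 5700 bases from the start, were at 88.4%, 87.9%, 97.7% and 83.1%. The promoter side of the same gene had a called window in the opposite direction. In chr6:128827001-128828000, upstream of the start, 6 CpGs were at 45.0%, 71.3%, 55.6% and 69.4%, and B was lower by 26.3 points in females and 13.8 in males (adjusted p 0.0150 in the model). Limma on log2 ratios (adjusted p 0.367) and Fisher's exact test in both sexes did not call it. Over the whole Klrb1b region, where both stretches are pooled with the rest, levels were 88.3%, 91.1%, 88.9% and 88.0%.

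Klrb1c held 2 called windows, both lower in B cells. In chr6:128786001-128787000, over an exon, 9 CpGs were at 80.5%, 98.3%, 70.7% and 95.9% (adjusted p 1.62e-10 in the model). Of these CpGs, 66.7% were unique by the measure given above, while every reference CpG of the other 8 called windows was. The CpG at 2710 bases from the start had the lowest mean level there, at 25%, 90.9%, 29.4% and 100%. In chr6:128783001-128784000, also over an exon, 3 CpGs were at 68.8%, 98.3%, 58.3% and 87.2% from 32 to 60 reads (adjusted p 0.000776 in the model), and limma on log2 ratios (adjusted p 0.0534) and Fisher's exact test in both sexes did not call this window. Between them, CpGs at 5001 and 5018 bases were at 20% or less in both B files and 69.2% or more in both T files, though the male B values rested on 6 and 5 reads. Gm44511, a protein-coding model on the same strand, runs across Klrb1c and Klrb1b, so these CpGs belong to it as well.

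Klra1, which encodes the inhibitory receptor Ly49A, had called windows in both directions within 5 kb. In its first kilobases, chr6:130385001-130386000 (intron), 3 CpGs were at 92.5%, 54.0%, 93.3% and 58.1%, higher in B by 38.5 and 35.2 points (adjusted p 8.19e-06 in the model). In chr6:130382001-130383000 (exon), 8 CpGs were at 44.1%, 71.6%, 60.2% and 81.4%, lower in B by 27.5 and 21.2 points (adjusted p 0.00183 in the model). The second window was not called by limma on log2 ratios (adjusted p 0.202) or by Fisher's exact test in both sexes. The inner stretch printed above holds 4 of its CpGs, all exonic and chosen after their values were seen, which were together at 3.03%, 56.4%, 19.0% and 65.1%. One of the 4, at 4386 bases, was at 20% or less in every file. Further out, the single CpG at -627 bases from the start was at 23.5%, 80%, 15.4% and 89.5%. The whole Klra1 region was at 81.0%, 84.1%, 83.5% and 86.9%. The Klra1 promoter, 4 CpGs at 26.1%, 40.3%, 27.3% and 54.8%, was not called (-20.9 ± 11.6 points, adjusted p 0.191 in the model), but was with the other dispersion setting (adjusted p 0.0401 in the model). It includes the CpG at -627 bases, while its 2 CpGs nearest the start had a difference of 6.47 ± 8.21 points.

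The inner stretch of Klra1 resembled the start of Klra3, the gene of Ly49C, in sequence. The printed stretches aligned over 183 columns with 77.0% identity and shared 1 CpG, and all CpGs of both are unique by the measure used above. The pair was chosen after its values were seen. At the start of Klra3, 7 CpGs were at 88.4%, 69.9%, 87.9% and 64.8%, with both B files above both T files, and in the Klra1 stretch both B files lay below. The shared CpG was at 85.7%, 72.7%, 75% and 81.3% in Klra3, with no single direction over the sexes, and at 0%, 71.4%, 0% and 58.3% in Klra1, from 6 to 16 reads. The direction in the Klra3 stretch thus rests on CpGs that Klra1 does not share. The Klra3 promoter as a whole (86.8%, 72.1%, 86.1% and 68.3%) was not called, with an adjusted p of 0.128 in the model. The 1 kb window with the same reads had an adjusted p of 0.0237 among windows and missed the 20 points, at 16.3 points. Among Klra promoters in the RefSeq table, the closest pairs were Klra4 with Klra8 (86.0% identity) and Klra3 with Klra9 (85.0%), and Klra1 had no partner above 49.7%.

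Klra7 and Klra10, both inhibitory Ly49 genes, had 1 called window each, both higher in B. In Klra7, 5 intronic CpGs of chr6:130222001-130223000 were at 91.3%, 72.9%, 92.1% and 69.8% (adjusted p 0.00106 in the model), a call not made by limma on log2 ratios (adjusted p 0.103) or by Fisher's exact test in both sexes. In the flank downstream of Klra10, 5 CpGs of chr6:130268001-130269000 were at 92.0%, 65.3%, 98.0% and 78.2% (adjusted p 0.000780 in the model). There the CpG at 13683 bases carried most of it, at 90%, 12.5%, 100% and 35.3%. The regions of both genes were near 90% in every file, at 92.4%, 90.6%, 92.2% and 91.0% for Klra7 and 91.4%, 88.9%, 90.7% and 90.9% for Klra10.

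**Figure D4:**
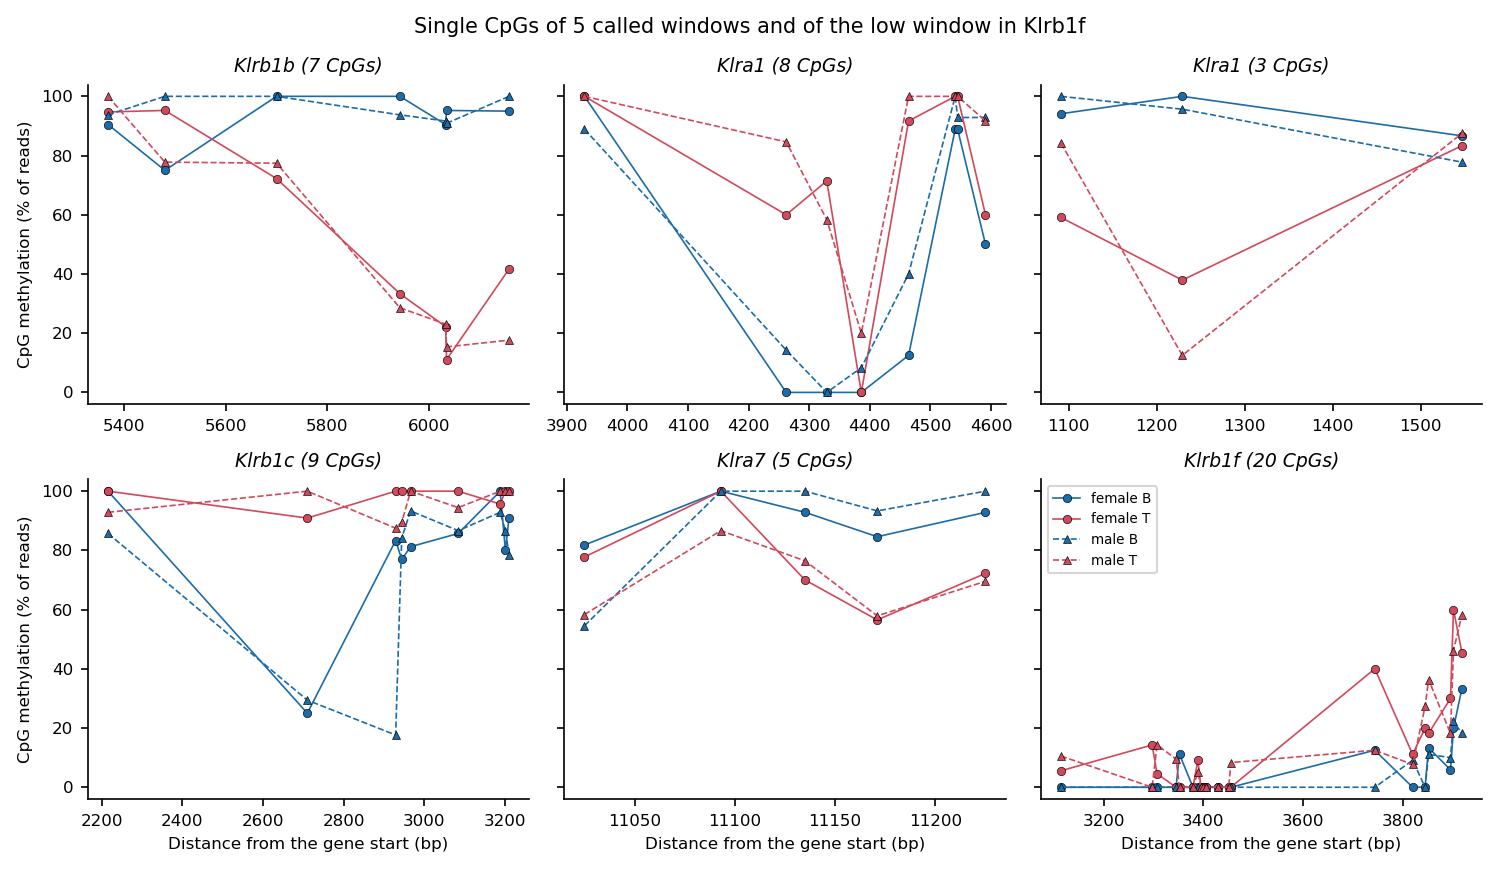
Methylation (% of reads) of single CpGs against their distance from the gene start (bp) in 5 called windows and in the low window of Klrb1f. Circles and solid lines are female, triangles and dashed lines male, blue B and red T. In Klrb1b the T files drop to 11.1% to 41.7% over 4 CpGs while the B files stay at 90.5% or more.

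The called window of Klrk1 lay at the start of the gene. The window chr6:129623001-129624000 was at 64.3%, 87.1%, 56.4% and 83.7% over 3 CpGs and 28 to 43 reads, lower in B by 22.8 and 27.3 points (adjusted p 0.0495 in the model, just under the threshold). It was not called without a sex term (adjusted p 0.0639 in the model), by limma on log2 ratios (adjusted p 0.140) or by Fisher's exact test in both sexes. The 3 CpGs from 71 to 158 bases upstream, all in the printed promoter, were at 57.1%, 86.7%, 28.1% and 80%, so both B files lay below both T files. The next CpGs out were high in every file, at 100%, 93.3%, 90% and 100%. The promoter as a whole was at 73.9%, 90.9%, 63.8% and 88.2% (-20.7 ± 10.1 points) and was not called, with an adjusted p of 0.0900 in the model. It was called by limma on log2 ratios (adjusted p 0.0359), with the other dispersion setting (adjusted p 0.00758 in the model) and within 500 bases of the start (adjusted p 0.0233 in the model). Whether a level of this kind comes from some cells being unmethylated or from partial methylation of each cannot be told apart in bulk DNA.

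A few gene starts were unmethylated in both cell types. Within 300 bases of the GENCODE start, the 29 genes other than Klrg2 had 108 usable CpGs. Of these, 8 (7.41%), in 4 genes, were at 20% or less in every file. Over the whole regions of the 29 genes the share was 1.15% of 2432 CpGs. The share near the starts of all genes was not counted. RefSeq places the start of some genes elsewhere, such as Klra5, Klra7, Klrb1a and Klrb1c, and the count was not repeated there. By the level over 1 kb to either side, 1 of 30 Klr promoters, that of Klrg2, was at 20% or less (3.33%), against 28.1% of all promoters. Klrd1 held 4 of the 8 low CpGs, at 0%, 0%, 3.17% and 3.03% from 52 to 66 reads a file. A count of 0 in 54 and 52 reads allows a level of up to 5.56% and 5.77%. On both sides the same gene was near full methylation, with 4 CpGs upstream at 91.7%, 98.2%, 98.1% and 94.7%, and the CpGs at 527 and 554 bases at 100%, 100%, 90.9% and 96.2%. The promoter average of Klrd1, at 42.1%, 27.8%, 25% and 33.3%, mixes these.

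Klra1 had 2 of the 8 CpGs, at -22 and -69 bases, both in its printed promoter, together at 12.2%, 2.70%, 7.14% and 3.70%. Klra17, which encodes Ly49Q, a receptor known from plasmacytoid dendritic cells, had 1 at -62 bases. That CpG was at 0%, 0%, 8.33% and 7.69% from only 9 to 13 reads. Klri2, a partner chain of Klre1, had 1 at 261 bases, at 0%, 0%, 0% and 12.5% from 8 to 16 reads. The other usable CpG near its start, at 164 bases, was at 0%, 18.8%, 0% and 27.3%, higher in both T files. Klri2 and Klra17 thus rest on single CpGs. In the profile of the 29 starts, CpGs from 200 bases upstream to the start were at 65.8%, 66.7%, 68.1% and 71.1%, and those from 500 to 200 bases upstream at 89.5%, 91.7%, 92.0% and 92.0%.

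**Figure D5:**
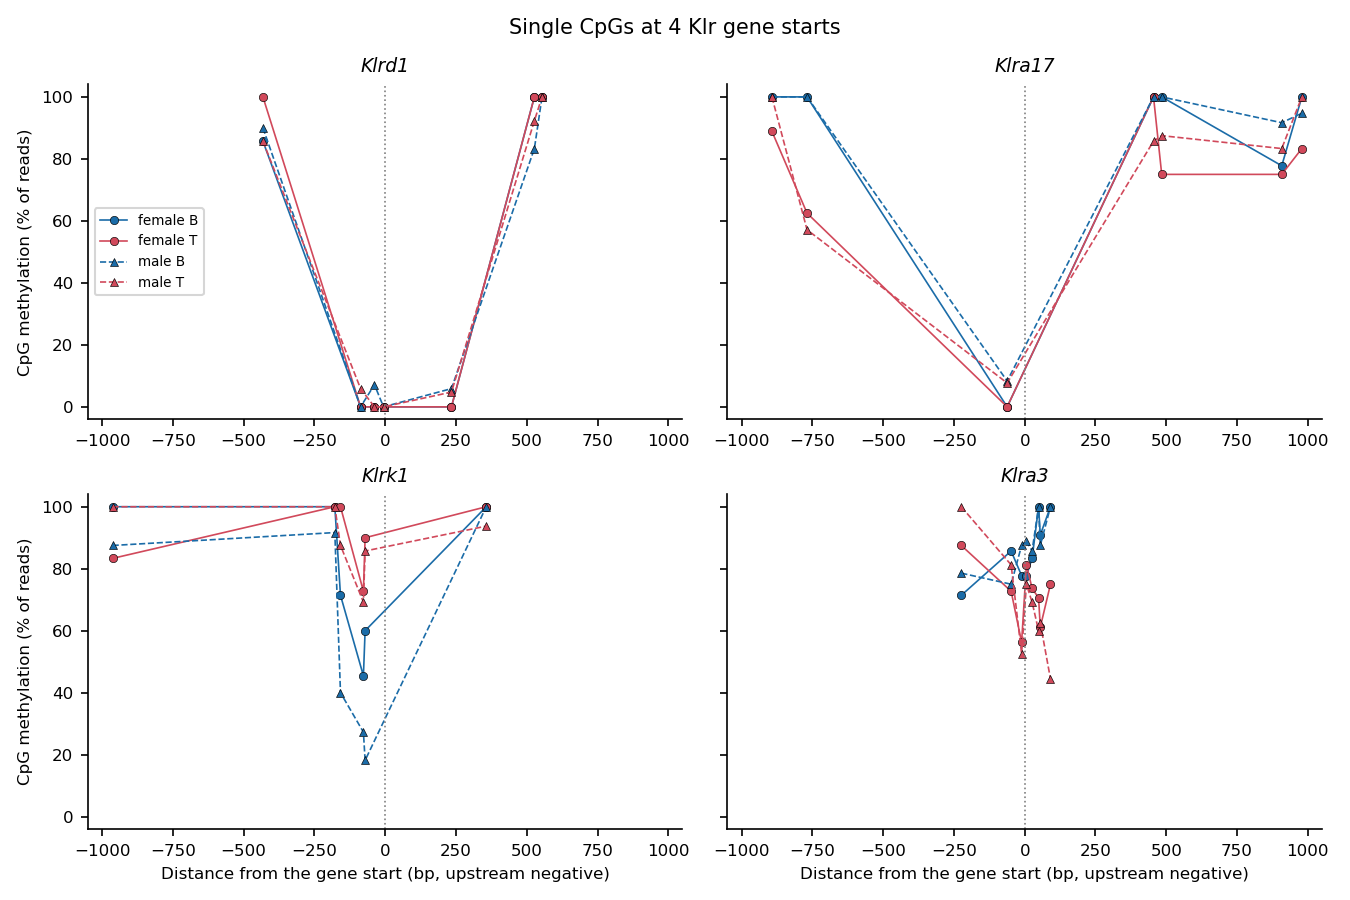
Methylation (% of reads) of single CpGs within 1000 bp of 4 gene starts, by distance from the start (upstream negative). Circles and solid lines are female, triangles and dashed lines male, blue B and red T. Klrd1 and Klra17 drop to below 10% at the start in all 4 files, Klrk1 drops further in the B files, and at Klra3 the T files lie lower at most CpGs.

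Klrb1f held the other unmethylated stretch outside Klrg2, inside the gene and not at its start. The window chr6:129049001-129050000 was at 6.22%, 8.81%, 2.53% and 10.4% over 20 CpGs. Its core, the sequence printed above, held 12 CpGs within 180 bases at 1.02%, 2.64%, 0% and 3.2%, of which 2 are exonic. It had 98, 227, 191 and 219 reads. The count of 0 in 191 reads allows up to 1.57%. Both T files lay above both B files in the window, by 2.59 and 7.88 points, which is under the 20 points of a call (adjusted p 0.0344 in the model). Gm44000, an antisense gene, covers the core and most of the window, and Gm43992 overlaps the gene elsewhere. Klre1 had lower stretches too, with an exonic window (chr6:129582001-129583000) at 28.0%, 47.4%, 26.8% and 36.7% over 5 CpGs and an adjusted p of 0.160 in the model.

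Single CpGs were counted where B and T differed by 50 points or more in the same direction in both sexes. There were 18 of 2692 (0.669%), 9 higher and 9 lower in B, against 0.744% of CpGs on the rest of chromosome 6, 0.444% higher and 0.3% lower. They lay in Klra1 (5), Klrb1b (4), Klrb1c (3), Klrk1 (2), Klra10, Klra17, Klrb1f and Klrc2 (1 each). In Klrk1 they were not at the start but at 11494 bases (14.3%, 66.7%, 25% and 88.9%) and 13732 bases (100%, 42.9%, 100% and 33.3%). The Klrc2 CpG, at 5276 bases, was at 85.7%, 22.2%, 90.9% and 22.2% from 9 to 14 reads.

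Between the sexes no Klr gene region, promoter or window was called (0 of 30, 0 of 30 and 0 of 399). The background on the autosomes was 0%, 0% and 0.00103%. Unadjusted p under 0.05 occurred in 0, 1 and 16 of them, against 4.30%, 4.86% and 4.73% of all, and limma on log2 ratios also called 0 gene regions and windows.

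The genes that work with these receptors were read from the same fits. None of 11 ligand genes tested had a called promoter or region (backgrounds 1.59% and 0.717%), with a median promoter level of 8.90%. The regions of 2 had an adjusted p under 0.05 with differences below 20 points, against 5.95% of all regions with such a p at any size. Clec2d, which encodes the ligand of Klrb1b and lies in the cluster, was at 46.9%, 30.4%, 50.6% and 28.6% (19.3 points, adjusted p 0.000799 in the model). Raet1d, a Klrk1 ligand gene, was at 75.1%, 68.3%, 77.0% and 68.6% (7.61 points, adjusted p 0.0391 in the model). Of 11 adaptor and signalling genes, 2 promoters were called, both higher in B, and 4 more had an adjusted p under 0.05 with differences from -7.38 to 19.5 points. Of all promoters 5.43% had such a p at any size. Cd247, which encodes the zeta chain of the T cell receptor, had its promoter at 86.3%, 2.67%, 83.0% and 2.73%, and its region, the only one called in this list, at 81.7%, 49.7%, 81.0% and 48.3%. Zap70, its kinase, had its promoter at 87.8%, 27.6%, 90.7% and 26.3%. Of the 11 regions in this list, 5 had an adjusted p under 0.05 in the model, against 5.95% of all regions. Besides Cd247 these were Lcp2 (11.9 points), Zap70 (10.0), Inpp5d (-6.53) and Plcg2 (-3.60). None of 8 regulators of NK and effector cells was called. Below 20 points, the promoters of the transcription factors Runx3 and Tox were higher in B by 17.7 and 7.88 points (adjusted p 0.000830 and 0.0105 in the model), and the regions of Tox and Prdm1 by 6.97 and 4.36 points (adjusted p 0.000201 and 0.0462 in the model). Of the 19 other protein-coding genes within the cluster 18 had a promoter tested and 1 was called, that of 4922502D21Rik at 62.5%, 91.2%, 48.6% and 89.0%, lower in B (adjusted p 3.00e-05 in the model).

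The cell labels were checked on marker promoters, with 1.59% of all promoters called as background. All 6 B cell markers were called lower in B, and 5 of 6 T cell markers lower in T, Thy1 being the exception at 17.3%, 8.69%, 14.8% and 6.99%. Of 8 NK markers outside the family, 3 (Cd226, Nkg7 and Il2rb) were called, all lower in T by 22.8 to 50.5 points. The largest of these, Cd226, rested on 3 CpGs and 30 to 46 reads a file. The Gzma promoter was also lower in T, by 12.9 points (adjusted p 0.0393 in the model), and the other 4 had adjusted p of 0.661 or more in the model. Of the gene regions of these 8 markers 0 were called (background 0.717%). Below 20 points, 4 of them had an adjusted p under 0.05 in the model, against 5.95% of all regions at any size. These were Nkg7, Cd226, Prf1 and Il2rb, all lower in T, by 5.25 to 15.7 points. The part these marker differences play in the Klr values was not tested. Both CD8 markers were called, Cd8b1 and Cd8a lower in T by 50.3 and 20.9 points. None of 4 myeloid markers was called, and Lyz2 had a difference of -19.3 points, lower in B (adjusted p 0.0121 in the model). Autosomal depth ranged from 14.6 to 17.7 reads a CpG.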

How the data were processed

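Whole-genome bisulfite reads were processed by the authors with Trim Galore, FastQC and Bismark 0.13.1 on mm10, per the submitters' processing notes. Filters beyond these are not given in the sources used here. The deposited files gave, per CpG with both strands merged, the methylated fraction to 3 decimals, computed by the authors, and the read count, also deposited, with at least 5 reads. Positions counted from 0 and are given here from 1 (GRCm38, which is mm10). Methylated reads were the fraction times the count, rounded.

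The genes and lists were chosen with earlier results of these data known. CpGs needed 5 reads in all 4 files, and a feature 3 such CpGs. A quasi-binomial logit with terms for cells and sex was fitted to the reads, with 1 residual degree of freedom. Dispersion was squeezed across features with limma 3.58.1 in R 4.3.3, with the prior from features with at least 5 expected methylated and unmethylated reads a file, following the read total for gene regions only. With no replicates, p-values rest on an average spread between files. For windows the dispersion was 1.31 in every window, so the spread of a window's own files did not enter its p-value. A call needed an adjusted p under 0.05 with 20 points. On simulated data with 200 changes of 30 points the model recovered 200 gene regions, 199 promoters and 197 windows. False calls numbered 0 for gene regions, 0 for promoters and 1 for windows, where 200000 windows were simulated and not all those tested. The changes were placed only in features at intermediate levels and above a minimum read number. For promoters the simulated dispersion was set below the mean of 1.65 in the data. Changes at the high levels of most Klr regions were not simulated. The recovery therefore does not show how often a change in the Klr features would be found. Intervals are 95% normal intervals of differences. Genes with values in every file were those with a called window, the best covered of each other subfamily, and the best and worst covered gene, with Klrc2, Klrg1, Klrb1 and Klrb1f added after their values were seen. The printed inner stretches of Klrb1b and Klra1, the stretches in Klrd1, Klra3, Klrk1, Klra17, Klri2 and Klrb1f and single CpGs were chosen after their values were seen.

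Alternatives were 10 reads per CpG, a threshold of 10 points, no sex or no cell type term, other dispersion priors, limma on log2 ratios (pseudocount 1), Fisher's exact test within each sex, other flanks, promoter and window sizes, means over CpGs, 1 sex alone, and unique CpGs.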

Additional observations from a re-analysis of the deposited data

Results flagged for a closer look

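The B minus T difference of the Klrb1f gene region took opposite signs in the sexes, 4.43 points in females and -3.73 in males. A test of the difference between the sexes, on counting error alone, gave an adjusted p of 0.0364 over all gene regions, and 15.3% of all gene regions pass that test. The region holds the unmethylated CpG-dense window, where the female B file had 209 reads and the others 329, 277 and 317. As a mean over CpGs, in which each CpG counts once, the levels were 62.6%, 65.2%, 61.7% and 65.9%, with T above B in both sexes. The part of read numbers in that difference was otherwise not tested. No Klr promoter or window passed the same test, with a smallest adjusted p of 0.120 and 0.266 on counting error in this model of all features.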

How the results depend on the processing

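No Klr gene region was called between B and T cells, and no Klr gene region or window between the sexes, under any alternative run. The largest B minus T difference of a region was 4.77 points. Alternatives that changed only the test or the threshold therefore could not have called a region between B and T cells. Promoters were not compared between the sexes under alternatives. Promoters rose from 0 called to 2 with a dispersion prior that follows the reads, 1 by limma on log2 ratios and 1 within 500 bases of the start. The 9 called windows became 3 with 10 reads per CpG, where 4 of the 9 could still be tested, 1 with a prior from all features, 4 by limma on log2 ratios, 4 by Fisher's exact test in both sexes, 5 with windows of 500 bp and 4 with windows of 2 kb. With a threshold of 10 points 12 were called and without a sex term 8. The 3, 1, 4 and 4 windows of the first 4 settings were all among the 9. The window of Klrb1c at 128786001 was the 1 called with the prior from all features. The cause of these losses was not tested beyond the fewer features tested with 10 reads. The pooled B minus T level of 1.41 points became -0.635 as a mean over CpGs and -0.283 without Klrg2. The share of usable CpGs fell from 85.6% to 45.8% with 10 reads. For 35 named regions, promoters and windows, 340 values were computed under alternatives, of which 295 kept direction and call, 20 lost and 3 gained a call, and 22 uncalled values changed sign. No called window changed direction.

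No paired analysis was possible because the groups share no replicate numbers and each has 1 file. For the same reason no replicate was left out, and the female and male files were read alone instead. Uniqueness was applied to genes of chromosome 6 only.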
